A study of Mus musculus with 96 samples.

Results

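Genes of the hypoxia response and of blood vessel growth signalling were followed through mouse heart ventricle RNA: Hif1a, Epas1, Arnt, Egln1, Egln2, Egln3, Vegfa, Vegfb and Ankrd37. They were chosen by name as pathway genes and make up 9 of the 55376 genes in the count table, and all 9 passed the filter on low counts that left 15629 genes for testing. The study sequenced 96 libraries to ask how the clock factor Bmal1 (gene symbol Arntl) bears on sex differences of the heart over the day. Every group has the genotype icsBmal1 KO, an inducible knockout of Bmal1 restricted to cardiomyocytes, the muscle cells of the heart. Tamoxifen, which switches such a knockout on, was given to tamoxifen females and tamoxifen males, and vehicle females and vehicle males were given vehicle. Each of these 4 groups has 24 libraries, 2 at each of 12 times labelled ct 18 to ct 62 in steps of 4 h, read here as circadian time in hours. No group without the knockout construct is among these libraries, so tamoxifen and the loss of Bmal1 cannot be told apart. The numbers in the library titles fall in separate ranges for vehicle males, for vehicle females and for the tamoxifen groups together. What these numbers mean is not stated. Anything that goes with them cannot be told apart from treatment, or from sex in vehicle hearts. The labels give no age or strain, do not name the promoter that drives the recombinase, and do not say that libraries came from separate mice, so the spread behind the p-values is that between libraries and may be technical. Values after ± are standard deviations for levels and standard errors for changes and amplitudes.

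Cells sense oxygen through a family of prolyl hydroxylases, encoded by Egln1, Egln2 and Egln3, which mark the alpha subunits of the hypoxia-inducible factors (HIF) for destruction while oxygen is present. When oxygen falls, the alpha subunits, encoded by Hif1a and Epas1, escape this mark, pair with the shared partner encoded by Arnt and bind DNA near their target genes. Vegfa, which encodes the main growth factor for blood vessels, Egln3 and Ankrd37 are known targets of this response, whereas Vegfb encodes a related ligand that is abundant in heart muscle and has been tied to fatty acid handling and coronary vessels. HIF alpha subunits are controlled largely as proteins, which RNA counts do not measure. The product of Arnt and the clock factor BMAL1 belong to the same protein family, as the older symbol of Bmal1, Arntl (Arnt-like), records.

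Library totals ran from 8944955 to 20596194 counts. The targeted gene Arntl stood at 1.01 to 55.6 CPM (counts scaled to library size) in vehicle females, with a median of 13.6, and at 2.78 to 29.3 CPM in tamoxifen females, with a median of 16.8. It stood at 1.30 to 44.5 CPM in vehicle males, with a median of 13.3, and at 1.30 to 32.4 CPM in tamoxifen males, with a median of 13.7. The amplitude of the Arntl rhythm was 2.38 ± 0.16 on the log2 scale in vehicle females and 0.87 ± 0.14 in tamoxifen females, and 2.05 ± 0.16 in vehicle males and 0.87 ± 0.15 in tamoxifen males, and the rhythm differed between the treatments in both sexes (adjusted p = 1.19e-05 in females and 0.000631 in males). The fitted log2 mean over the day of Arntl was higher with tamoxifen (log2 change 0.44 ± 0.15 in females and 0.36 ± 0.15 in males). Its plain average in CPM was lower with tamoxifen, at 17.5 ± 7.67 against 20.4 ± 18.5 in females and 15.1 ± 8.34 against 16.3 ± 13.9 in males. The rhythm of Arntl was smaller in the tamoxifen libraries, while the direction of its mean depended on the scale. The counts cover the whole gene and all cells of the ventricle. Cardiomyocyte markers summed to between 40930 and 53950 CPM in every library, and 0 of the 9 markers were at 0 in any group. The library labelled Tam_F_ct54_559 had 0.27 CPM of Xist and 11.3 CPM of the Y-linked gene Ddx3y, which goes against its label, and 13 libraries held over 20 CPM of the atrial gene Myl7. A further 10 vehicle male libraries stand apart. Their share of counts on loci of the GENCODE class TEC, whose status as genes is pending, was 0.123% to 0.190%, above the highest value of the other 3 groups, 0.112%. Of these 10 libraries, 7 lie at ct 26 to 42 and 3 at ct 54 to 62, and no vehicle male library is left at ct 30 and ct 34 without them. Most results below that use vehicle males were therefore set beside the value with these 10 left out. Libraries that stand apart means these 10, the 13 high in Myl7, Tam_F_ct54_559 and Tam_M_ct54_556. The latter had 1.31 CPM of Arntl beside 17.8 CPM in the other tamoxifen male library of that time. As Arntl is the targeted gene, a wrong time label and a stronger loss of Bmal1 cannot be told apart by it, and neither was tested. This library stays in the fits, and leaving it out kept the call of 115 of 117 values of the 9 genes and added 2 calls.

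The levels of the genes to each other can be compared only per length. Per kilobase of exon and averaged over the 96 libraries, Vegfb stood highest at 154 CPM, followed by Egln1 at 150, Vegfa at 126, Epas1 at 72.6, Egln3 at 34.7, Hif1a at 21.1, Egln2 at 18.9, Arnt at 9.46 and Ankrd37 at 3.50 CPM. Vegfb and Egln1 cannot be ordered, since Vegfb was the higher of the pair in 54 of 96 libraries, and Hif1a and Egln2 overlapped as well, with Hif1a higher in 65 of 96. Vegfa lay above Epas1, and Egln2 above Arnt, in 96 of 96 libraries. Egln1 was thus the most abundant of the 3 hydroxylase transcripts and Epas1 the more abundant of the 2 alpha subunit transcripts in these ventricles. Ankrd37, which encodes an ankyrin repeat protein, had 30 to 215 counts per library and overlaps 2 tested genes on the opposite strand, Lrp2bp and Ufsp2. Whether the authors' counting used strand is not given in the sources used here, so reads of these genes may be shared. Hif1a overlaps the tested antisense gene Gm15283, and the other 7 genes overlap no tested gene.

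The windows of 250 bases before the transcription start were read for 8 of the 9 genes (Epas1 is not in the table) from RefSeq on GRCm38.p6, in 10 windows because Egln2 and Vegfa have 2 starts each. They were searched for the core letters of the HIF response element, ACGTG and GCGTG, on both strands, and for the clock's E-box CACGTG, which reads the same on both strands and holds ACGTG on each of them. Of the 10 windows, 9 held ACGTG or GCGTG, which 38.6% of all 32851 windows of that length hold, and 1 held the E-box, which 6.02% hold. A total of 4 windows are shown, for the alpha subunit with the E-box, the hydroxylase with the largest change and the 2 genes with the most core matches. Capitals mark ACGTG or GCGTG on either strand, and the sequences run 5′ to 3′ on the strand of the gene.
Hif1a (chr12:73907617-73907866, plus strand): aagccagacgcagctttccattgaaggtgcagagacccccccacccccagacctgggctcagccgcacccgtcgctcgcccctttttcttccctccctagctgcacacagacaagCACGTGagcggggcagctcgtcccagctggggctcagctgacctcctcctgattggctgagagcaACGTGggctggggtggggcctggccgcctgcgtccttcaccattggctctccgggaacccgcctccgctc
Egln3 (chr12:54203875-54204124, minus strand): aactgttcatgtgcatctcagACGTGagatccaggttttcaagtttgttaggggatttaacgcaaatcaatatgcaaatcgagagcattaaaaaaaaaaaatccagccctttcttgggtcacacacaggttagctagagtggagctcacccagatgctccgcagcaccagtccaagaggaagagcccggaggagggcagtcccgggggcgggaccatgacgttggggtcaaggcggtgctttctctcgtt
Ankrd37 (chr8:45999851-46000100, minus strand): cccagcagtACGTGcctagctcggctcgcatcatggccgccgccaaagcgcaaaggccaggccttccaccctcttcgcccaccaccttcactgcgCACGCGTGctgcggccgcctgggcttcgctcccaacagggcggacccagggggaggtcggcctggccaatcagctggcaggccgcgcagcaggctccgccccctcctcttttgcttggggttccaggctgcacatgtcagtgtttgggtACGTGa
Egln2 (chr7:27166803-27167052, minus strand): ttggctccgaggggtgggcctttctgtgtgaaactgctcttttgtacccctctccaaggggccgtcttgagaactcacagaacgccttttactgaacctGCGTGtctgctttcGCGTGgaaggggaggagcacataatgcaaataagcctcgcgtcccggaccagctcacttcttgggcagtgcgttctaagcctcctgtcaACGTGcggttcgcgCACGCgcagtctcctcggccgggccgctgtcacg
Hif1a holds ACGTG 3 times, 2 of them being the strands of its E-box. Egln3 holds ACGTG once and GCGTG not at all, and Ankrd37 holds 2 of each. Egln2 holds ACGTG once and GCGTG 3 times at the start shown. The window before the upstream start of Vegfa, chr17:46032378-46032627 on the minus strand, held 0 matches, and the window before its other start held 2. The windows of Hif1a and Ankrd37, and those before the downstream starts of Egln2 and Vegfa, lie inside the gene spans of the annotation used for the counts. Their RefSeq starts lie further downstream than the starts of these spans. The 2 matches of Vegfa therefore lie within its gene and not before it. The windows of Egln1 and Arnt overlap their gene spans in part. A match describes the letters in these windows and is not a binding site.

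More of these genes were called with tamoxifen in males than in females, as was so among all tested genes. In females the mean level over the day of 1 gene rose, Egln3, and that of 1 gene fell, Egln1, which makes 2 of 9 called at an adjusted p under 0.05, against 27.5% of all tested genes (15.2% higher and 12.3% lower). The median log2 change of the 9 genes was -0.00 there, and that of all tested genes was 0.01. In males 6 of 9 were called, 4 higher and 2 lower, against 70.0% of all tested genes (32.2% higher and 37.8% lower), with a median of 0.05 for the 9 genes and -0.05 for all. In males 5 of 9 were called without the 10 vehicle male libraries, 2 higher and 3 lower, against 42.5% of all genes. Without every library that stands apart, 8 of 9 were called in males, 3 higher and 5 lower, against 48.2% of all genes, so the count and the balance of directions depend on the libraries used. As shares of the 9 genes, the counts in females and in males with all libraries did not exceed the shares over all genes. Because this is bulk tissue, a lower level can reflect fewer cells of a type or less RNA per cell, and these cannot be told apart.

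**Figure D1:**
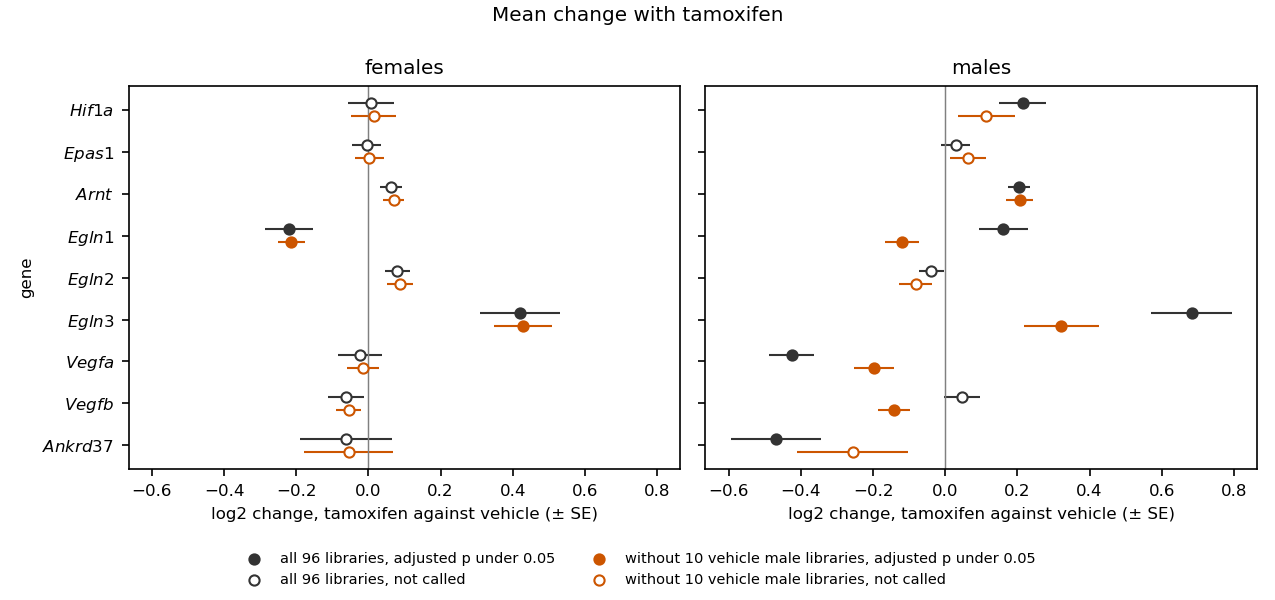
Log2 change of the mean level over the day with tamoxifen against vehicle for each gene (x axis, ± SE) in females and males, from all 96 libraries (grey) and without the 10 vehicle male libraries of high TEC share (orange); filled points are called at an adjusted p under 0.05. Egln3 lies to the right of 0 in both sexes under both settings, Egln1 moves from 0.16 to -0.12 in males, and Vegfa moves from -0.43 to -0.20.

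Among the oxygen sensors, Egln3 (ENSMUSG00000035105.5, chr12:54178981-54203860, minus strand) encodes a hydroxylase whose own transcript is induced by HIF. It ranged from 52.4 to 123 CPM in vehicle females, with a median of 80.0, and from 59.6 to 178 CPM in tamoxifen females, with a median of 112. In vehicle males it ranged from 22.7 to 112 CPM around a median of 66.5, and in tamoxifen males from 46.4 to 198 CPM around a median of 106. The groups overlapped in both sexes, and the mean was higher with tamoxifen at 11 of 12 times in each sex. The rise in females was 0.42 ± 0.11 on the log2 scale (1.34-fold, adjusted p = 0.00211), and the rise in males was 0.68 ± 0.11 (1.61-fold, adjusted p = 1.18e-07). The rise in males without the 10 vehicle male libraries was 0.32 ± 0.10 (adjusted p = 0.00841), and the change in females minus that in males was not called with all libraries (-0.26 ± 0.16, adjusted p = 0.152) or without the 10 (0.11 ± 0.13, adjusted p = 0.566).

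Egln1 (ENSMUSG00000031987.6, chr8:124908587-124949324, minus strand) encodes the hydroxylase that sets HIF levels in most tissues at normal oxygen. It ranged from 496 to 715 CPM in vehicle females, with a median of 592, and from 410.1 to 608 CPM in tamoxifen females, with a median of 510.4. It fell by 0.22 ± 0.07 on the log2 scale in females (adjusted p = 0.00848) and was lower at 11 of 12 times. In vehicle males Egln1 ranged from 250.3 to 720.3 CPM around a median of 519.5, and in tamoxifen males from 451.6 to 632 CPM around 558.6, so the vehicle values enclosed the tamoxifen values. Its change in males was 0.16 ± 0.07 with all libraries (adjusted p = 0.0274) and -0.12 ± 0.05 without the 10 vehicle male libraries (adjusted p = 0.0358), so its direction turned. The call with all libraries was lost when ct 30, ct 34 or ct 38 was left out (adjusted p = 0.105, 0.0833 and 0.0780). Egln2 (ENSMUSG00000058709.11, chr7:27158658-27166802, minus strand), whose product is the third hydroxylase, was called in neither sex with all libraries. Its log2 change was 0.08 ± 0.04 in females (95% interval 0.01 to 0.15, adjusted p = 0.0806) and -0.04 ± 0.04 in males (95% interval -0.11 to 0.03, adjusted p = 0.331). In males it was -0.08 ± 0.05 without the 10 vehicle male libraries (adjusted p = 0.138) and -0.14 ± 0.05 without every library that stands apart (adjusted p = 0.00757), which makes it a call. Its levels lay between 42.1 and 73.0 CPM in all 4 groups.

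Of the HIF subunits, Arnt (ENSMUSG00000015522.18, chr3:95434388-95497240, plus strand) ranged from 57.0 to 83.8 CPM in vehicle males, with a median of 66.9, and from 67.8 to 91.3 CPM in tamoxifen males, with a median of 80.1. It rose by 0.20 ± 0.03 on the log2 scale in males (1.15-fold, adjusted p = 1.13e-08), at 10 of 12 times, and by 0.21 ± 0.04 without the 10 vehicle male libraries (adjusted p = 6.50e-06). In females it ranged from 61.8 to 85.6 CPM with vehicle and from 70.2 to 94.8 CPM with tamoxifen, and its change of 0.06 ± 0.03 was not called (adjusted p = 0.112). The change in females was smaller than that in males, and that difference was called with all libraries (-0.14 ± 0.04, adjusted p = 0.00443) and without the 10 (-0.14 ± 0.05, adjusted p = 0.0241). Without every library that stands apart, Arnt was also called in females, at 0.08 ± 0.03 (adjusted p = 0.0455).

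Hif1a (ENSMUSG00000021109.13, chr12:73901375-73947530, plus strand) encodes the alpha subunit that acts in nearly all cells. It ranged from 86.0 to 187 CPM in vehicle females and from 95.6 to 162 CPM in tamoxifen females, with medians of 128 and 133, and its change of 0.01 ± 0.06 was not called (95% interval -0.12 to 0.13). In vehicle males it ranged from 72.5 to 160.0 CPM around 107, and in tamoxifen males from 80.0 to 188 CPM around 124. It rose by 0.21 ± 0.06 in males (adjusted p = 0.00219), and the value without the 10 vehicle male libraries was 0.11 ± 0.08 (adjusted p = 0.246), which ends the call, and without every library that stands apart it was 0.22 ± 0.07 (adjusted p = 0.00743). Epas1 (ENSMUSG00000024140.10, chr17:86753700-86833410, plus strand) encodes the alpha subunit that is prominent in endothelial cells. Its change was -0.00 ± 0.04 in females (95% interval -0.09 to 0.08) and 0.03 ± 0.04 in males (95% interval -0.05 to 0.11), and neither was called. Without the 10 libraries the value in males was 0.06 ± 0.05 (adjusted p = 0.333). Epas1 lay between 283 and 506 CPM in all 4 groups.

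Of the ligands, Vegfa (ENSMUSG00000023951.17, chr17:46016993-46032369, minus strand) ranged from 386 to 627 CPM in vehicle females and from 370.4 to 652 CPM in tamoxifen females, with medians of 548 and 512. Its change in females was -0.02 ± 0.06 (95% interval -0.14 to 0.10) and was not called. In vehicle males it ranged from 454 to 1037 CPM around a median of 610.1, and in tamoxifen males from 280.1 to 595.3 CPM around 496. Vegfa fell in males by 0.43 ± 0.06 on the log2 scale (adjusted p = 3.98e-09), at 9 of 12 times, and by 0.20 ± 0.06 without the 10 vehicle male libraries (adjusted p = 0.00275). Vegfb (ENSMUSG00000024962.13, chr19:6982473-6987651, minus strand) lay between 144 and 326 CPM over all groups, and its changes of -0.06 ± 0.05 in females (adjusted p = 0.387) and 0.05 ± 0.05 in males (adjusted p = 0.400) were not called. Without the 10 vehicle male libraries its change in males was -0.14 ± 0.04 (adjusted p = 0.00601). Ankrd37 (ENSMUSG00000050914.16, chr8:45996902-46005707, minus strand) ranged from 2.71 to 9.50 CPM in vehicle females and from 2.35 to 8.94 CPM in tamoxifen females, with a change of -0.06 ± 0.13 that was not called. It ranged from 3.37 to 15.5 CPM in vehicle males and from 2.26 to 9.88 CPM in tamoxifen males. It fell in males by 0.47 ± 0.13 (adjusted p = 0.000684), and without the 10 libraries the change was -0.26 ± 0.15 (adjusted p = 0.178); without every library that stands apart it was -0.40 ± 0.15 (adjusted p = 0.0294).

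The 10 vehicle male libraries of high TEC share carried much of the spread among vehicle males. Vegfa stood at 650.4 to 1037 CPM in these 10 and at 454 to 701 CPM in the other 14 vehicle male libraries, and 9 of the 10 lay above the highest value of the other 3 groups, 652 CPM. Egln1 stood at 250.3 to 472 CPM in the 10 and at 506 to 720.3 CPM in the other 14, with no overlap, and 8 of the 10 lay below the lowest value of the other 3 groups. Egln3 stood at 22.7 to 65.2 CPM in the 10 and at 53.9 to 112 CPM in the other 14, and 7 of the 10 lay below all libraries of the other 3 groups. Vegfa was thus high, and the hydroxylase transcripts Egln1 and Egln3 were low, in the same libraries. Ankrd37 had a median of 8.61 CPM in the 10 and 4.63 in the other 14, Hif1a 93.6 and 127.5 CPM, and Vegfb 214 and 273 CPM. The medians lay closer for the hydroxylase transcript Egln2 (56.6 and 54.8 CPM), Epas1 (428 and 405 CPM) and Arnt (64.8 and 68.9 CPM). The share of all tested genes that split between these libraries is not given here. Endothelial markers moved with this split: the 13 markers summed to 2048 to 3553 CPM in the 10 libraries and to 1261 to 1820 CPM in the other 14, and 13 of 13 had the higher median in the 10. In the other groups that sum ran from 1278 to 2009 CPM in vehicle females, 1151 to 1598 in tamoxifen females and 1200 to 1764 in tamoxifen males. Cardiomyocyte markers summed to 40930 to 48330 CPM in the 10 and to 46360 to 50720 CPM in the other 14, and erythroid markers had a median sum of 1200 CPM in the 10 and 805.5 in the other 14. Median sums were also higher in the 10 for fibroblast (1341 and 1088 CPM), macrophage (243 and 217), atrial (297 and 186.5), lymphocyte and neutrophil markers. They were lower in the 10 for markers of vessel wall cells (1665 and 1719 CPM), skeletal muscle and adipocytes. None of the 13 endothelial markers was at 0 in any group, and the part of these markers or of the TEC share in the results on males was not tested.

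**Figure D2:**
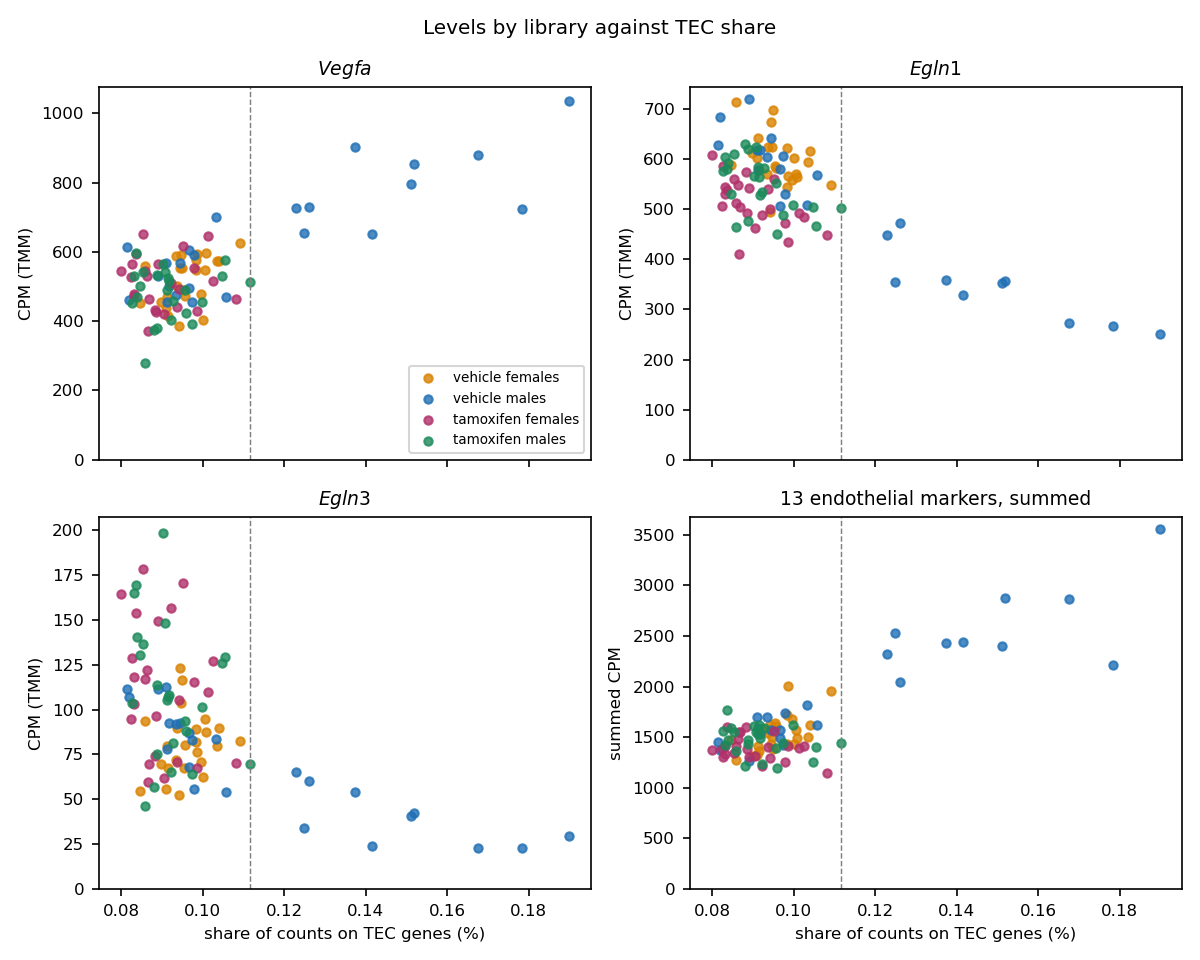
CPM of Vegfa, Egln1 and Egln3 and the summed CPM of 13 endothelial markers (y axes) against the share of counts on TEC loci in percent (x axis), with 1 point per library, coloured by group; the dashed line is the highest share outside vehicle males, 0.112%. The 10 vehicle male libraries to the right of the line hold Vegfa at 650.4 CPM or more and Egln1 at 472 CPM or less.

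Between the sexes, 8 of 9 genes were called in vehicle hearts, 4 higher and 4 lower in females, against 68.3% of all tested genes (31.8% higher and 36.5% lower). This comparison uses the same vehicle males as the male tamoxifen comparison. With all libraries Hif1a (0.23 ± 0.06), Arnt (0.18 ± 0.03), Egln1 (0.29 ± 0.07) and Egln3 (0.30 ± 0.11) were higher in females. Epas1 (-0.10 ± 0.04), Egln2 (-0.18 ± 0.04), Vegfa (-0.32 ± 0.06) and Ankrd37 (-0.49 ± 0.13) were lower in females. Without the 10 vehicle male libraries 3 of 9 were called, against 46.4% of all genes: Arnt was higher in females by 0.18 ± 0.04 (adjusted p = 7.94e-05), and Egln2 (-0.23 ± 0.05, adjusted p = 1.86e-05) and Vegfb (-0.15 ± 0.04, adjusted p = 0.00351) were lower. Egln1 then differed by 0.00 ± 0.05 and Egln3 by -0.07 ± 0.10. In tamoxifen hearts 1 of 9 was called, Epas1, with a log2 difference of -0.14 ± 0.04, lower in females (adjusted p = 0.0204), at 8 of 12 times, against 7.68% of all genes. Epas1 ranged from 283 to 488 CPM in tamoxifen females and from 332 to 484 CPM in tamoxifen males, and the call was lost without every library that stands apart and without ct 30, ct 46 or ct 54.

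The effect of tamoxifen differed between the sexes for 6 of 9 genes by edgeR (4 by DESeq2), against 52.3% of all genes: Hif1a, Arnt, Egln1, Egln2, Vegfa and Ankrd37. Without the 10 vehicle male libraries 3 of 9 remained, Arnt, Egln2 and Vegfa, against 28.1% of all genes. For Egln2 the change in females minus that in males was 0.12 ± 0.05 with all libraries (adjusted p = 0.0397) and 0.17 ± 0.06 without the 10 (adjusted p = 0.0216). For Vegfa it was 0.40 ± 0.09 (adjusted p = 8.42e-05) and 0.18 ± 0.07 (adjusted p = 0.0468). Without every library that stands apart, Arnt and Egln2 were called and Vegfa was not (adjusted p = 0.0722). With single times left out of all libraries, the call of Egln2 was lost without ct 30, 42, 46, 50, 54, 58 or 62 (adjusted p = 0.0568 to 0.183). That of Hif1a was lost without ct 22, 26, 30, 34, 38, 42 or 62, and that of Ankrd37 without ct 18, 22, 26, 30, 38, 46, 50, 58 or 62.

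Over the day, the genes peaked at different hours. A cosine with a period of 24 h was fitted in each group, and its amplitude is the log2 distance from the mean to the peak. In vehicle females 5 of 9 genes were rhythmic, against 34.5% of all genes, with a median amplitude over the 9 of 0.17 beside 0.15 for all genes. In tamoxifen females 5 of 9 were rhythmic, against 17.1%, with a median of 0.20 beside 0.12. In vehicle males 8 of 9 were rhythmic by edgeR (7 by DESeq2), against 55.2%, and 4 of 9 without the 10 libraries, against 18.2%. In tamoxifen males 2 of 9 were rhythmic, against 8.03%, with a median of 0.10 beside 0.10.

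**Figure D3:**
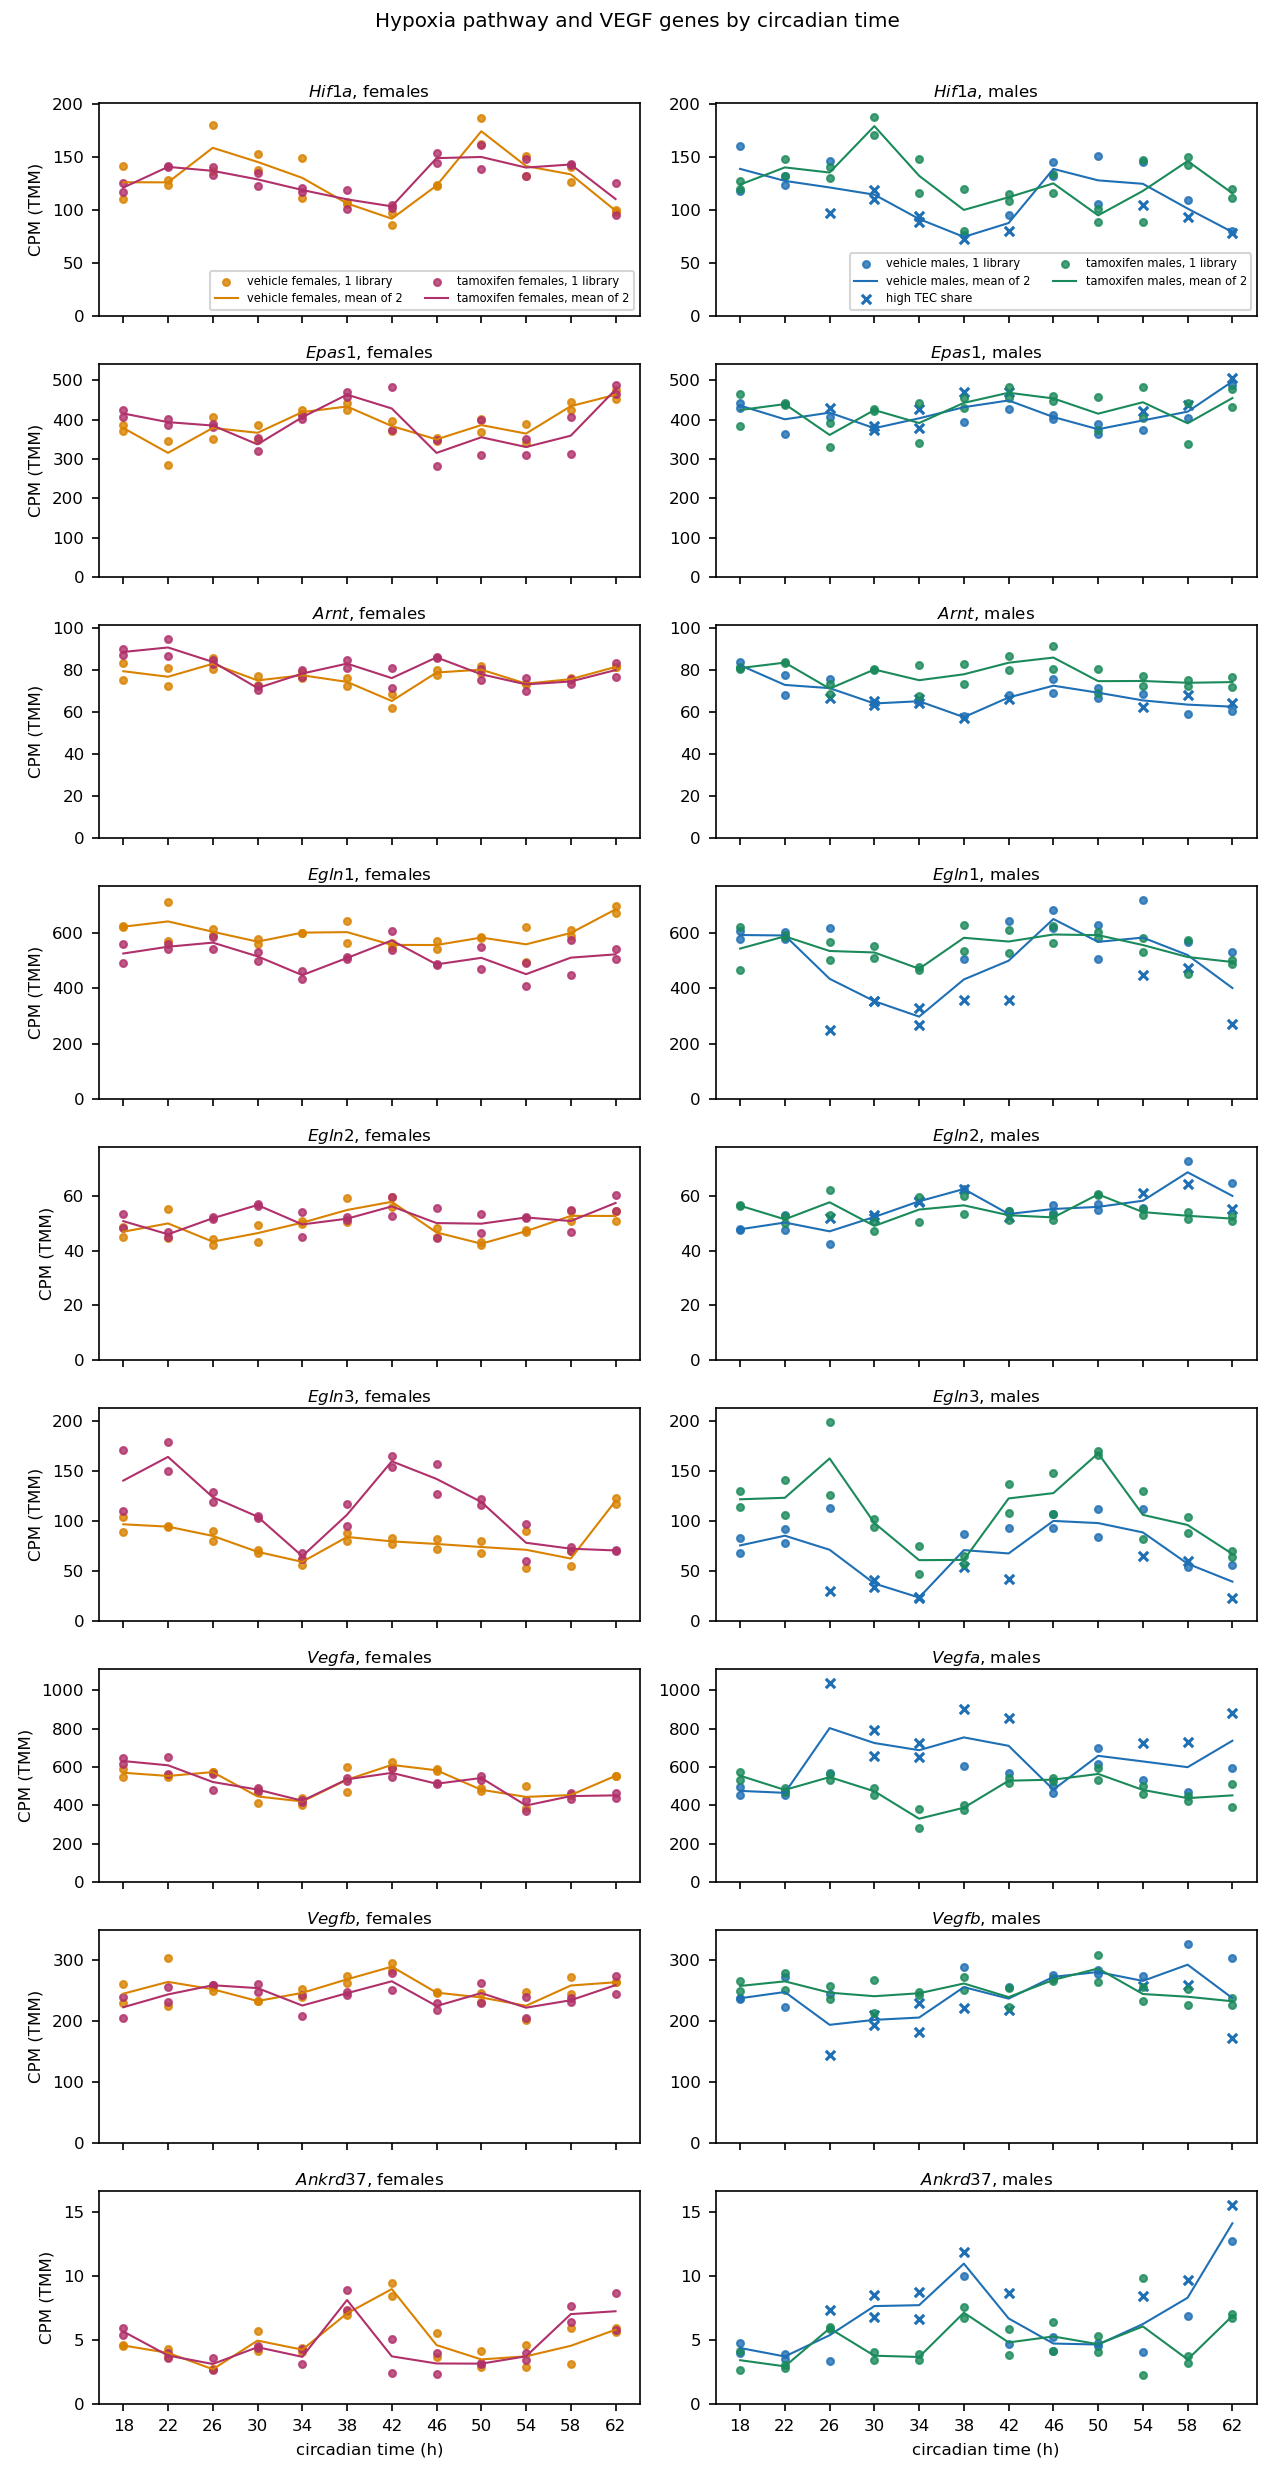
Level of each gene in CPM (y axis, TMM-scaled, from 0) against circadian time in hours (x axis) for females (left) and males (right); points are libraries, lines join the means of the 2 libraries per time, and crosses are the 10 vehicle male libraries of high TEC share. Egln3 in tamoxifen hearts rises and falls in both cycles, and the crosses hold the highest Vegfa values.

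Hif1a peaked early in the circadian day. In vehicle females it stood at 166.5 ± 22.3 CPM at circadian hour 2, at 103 ± 4.14 CPM at hour 14 and at 109 ± 24 CPM at hour 18 (SD, n = 4 libraries each, from both cycles). Its amplitude was 0.32 ± 0.06 with a fitted peak at 3.73 h in vehicle females (adjusted p = 0.000250) and 0.20 ± 0.06 with a peak at 2.64 h in tamoxifen females, which was not called (adjusted p = 0.0600). In vehicle males the amplitude was 0.34 ± 0.06 with a peak at 0.711 h (adjusted p = 6.03e-05), and 0.30 without the 10 libraries (adjusted p = 0.0302). In tamoxifen males it was 0.14 ± 0.06 (adjusted p = 0.342). Hif1a was called in both vehicle groups and in neither tamoxifen group, and the change of its rhythm with tamoxifen was called in males (adjusted p = 0.0175), not without the 10 libraries (adjusted p = 0.196), and not in females (adjusted p = 0.654). Without every library that stands apart, Hif1a was also called as rhythmic in tamoxifen females (adjusted p = 0.0168) and tamoxifen males (adjusted p = 0.0120), and in tamoxifen females it was called without the 10 libraries too (adjusted p = 0.0416).

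Epas1, the other alpha subunit, peaked later than Hif1a. In vehicle females it stood at 448.4 ± 20.7 CPM at circadian hour 14 and at 333 ± 31.9 CPM at hour 22, and in tamoxifen females at 470.2 ± 12.96 CPM at hour 14 and 334 ± 22.3 CPM at hour 6. Its amplitude was 0.17 ± 0.04 in vehicle females (peak 11.9 h, adjusted p = 0.00258) and 0.20 ± 0.04 in tamoxifen females (peak 15.3 h, adjusted p = 0.000500). In vehicle males it was 0.12 ± 0.04 (peak 15.5 h, adjusted p = 0.0275), not called without the 10 libraries (adjusted p = 0.273), and in tamoxifen males 0.08 ± 0.04 (adjusted p = 0.450). Arnt, their partner, had an amplitude of 0.03 ± 0.03 in vehicle females, which was not called, and of 0.12 ± 0.03 in tamoxifen females, with a peak at 19.99 h (adjusted p = 0.0131), a call that was lost without ct 22 or ct 30. In vehicle males the amplitude of Arnt was 0.13 ± 0.03 with a peak at 22.1 h (adjusted p = 0.000978), and 0.16 without the 10 libraries (adjusted p = 0.0191). In tamoxifen males it was 0.08 ± 0.03 (adjusted p = 0.208).

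Among the hydroxylases, Egln3 had the largest fitted amplitude in each of the 4 groups. In tamoxifen females it stood at 150 ± 27.7 CPM at circadian hour 18, at 153 ± 21.1 CPM at hour 22 and at 68.4 ± 5.14 CPM at hour 10, and in tamoxifen males at 165 ± 29.8 CPM at hour 2 and at 63.9 ± 5.35 CPM at hour 14. The values at hour 10 in tamoxifen females, 61.7 to 73.9 CPM, lay wholly below those at hour 22, 127 to 178 CPM. These hours hold its lowest and highest means in that group, so their separation is no test of a rhythm. Its amplitude was 0.59 ± 0.11 in tamoxifen females (peak 21.5 h, 2.26-fold from trough to peak, adjusted p = 0.000217) and 0.59 ± 0.11 in tamoxifen males (peak 0.113 h, 2.27-fold, adjusted p = 0.000468). In vehicle females it was 0.25 ± 0.11 and not called with all libraries (peak 18.4 h, adjusted p = 0.161), but called without the 10 vehicle male libraries (0.26, adjusted p = 0.0246), which enter that group's test only through the shared estimate of the spread and the scaling. Without every library that stands apart it was not called (0.21, adjusted p = 0.165). In vehicle males it was 0.54 ± 0.11 (peak 22.9 h, adjusted p = 0.000205) and 0.31 without the 10 libraries (adjusted p = 0.0802). The change of the Egln3 rhythm with tamoxifen was not called in females with all libraries (vector length 0.45 ± 0.16, adjusted p = 0.247), and was called without every library that stands apart (0.47, adjusted p = 0.0199). In males it was not called with all libraries (0.18 ± 0.16, adjusted p = 0.649) or without the 10 (0.32, adjusted p = 0.283).

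Egln2 was rhythmic in vehicle hearts. It stood at 43.02 ± 1.071 CPM at circadian hour 2 and at 53.9 ± 4.05 CPM at hour 14 in vehicle females, ranges that did not overlap (42.1 to 44.5 and 50.7 to 59.4 CPM). These hours hold its lowest and highest means in that group, so the gap is no test of a rhythm. Its amplitude was 0.15 ± 0.04 in vehicle females (peak 14.5 h, adjusted p = 0.00180) and 0.15 ± 0.04 in vehicle males (peak 10.9 h, adjusted p = 0.000578), and 0.21 in the latter without the 10 libraries (adjusted p = 0.00991). In tamoxifen females it was 0.05 ± 0.04 (adjusted p = 0.624) and in tamoxifen males 0.02 ± 0.04 (adjusted p = 0.937). The change of the Egln2 rhythm was called in males (0.18 ± 0.05, adjusted p = 0.0218), not without the 10 libraries (0.23, adjusted p = 0.0560), and not in females (0.12 ± 0.05, adjusted p = 0.346). Egln1 was rhythmic only among vehicle males, with an amplitude of 0.28 ± 0.07 (peak 22.2 h, adjusted p = 0.00101) that became 0.08 without the 10 libraries (adjusted p = 0.450). In the other 3 groups the amplitude of Egln1 was 0.05 to 0.11 and not called.

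Vegfa peaked late in the circadian night. In vehicle females it stood at 590.2 ± 32.3 CPM at circadian hour 18 and 437 ± 23.7 CPM at hour 10, and in tamoxifen females at 600.0 ± 42.3 CPM at hour 18 and 436 ± 20.1 CPM at hour 10. These ranges did not overlap in either group, but the hours are those of the highest and lowest means, so this is no test of a rhythm. Its amplitude was 0.23 ± 0.06 in vehicle females (peak 19.7 h, 1.37-fold from trough to peak, adjusted p = 0.00897), 0.24 ± 0.06 in tamoxifen females (peak 20.4 h, 1.39-fold, adjusted p = 0.0117) and 0.24 ± 0.06 in tamoxifen males (peak 23 h, 1.40-fold, adjusted p = 0.0192). The call was lost in tamoxifen females without ct 18 or ct 54 (adjusted p = 0.0509 and 0.0534), and in tamoxifen males without ct 34, ct 38 or ct 50 (adjusted p = 0.208, 0.0581 and 0.0608). In vehicle males the fitted peak lay at 8.96 h (amplitude 0.19 ± 0.06, adjusted p = 0.0343), and the rhythm was not called without the 10 libraries (amplitude 0.13, adjusted p = 0.299). The change of the Vegfa rhythm with tamoxifen was not called in females (0.04 ± 0.09, adjusted p = 0.956). In males it was called with all libraries (0.41 ± 0.09, adjusted p = 0.00310) and without the 10 (0.33, adjusted p = 0.0371), but not without every library that stands apart (0.22, adjusted p = 0.147). Vegfb was not called as rhythmic in any of the 4 groups with all libraries, with amplitudes of 0.02 to 0.10, and was called in vehicle females without the 10 vehicle male libraries (0.10, adjusted p = 0.0400). In vehicle males its amplitude was 0.03 ± 0.05 with all libraries and 0.16 without the 10 (adjusted p = 0.0565).

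Ankrd37, the gene of lowest level, had the largest fitted amplitude of the 9 in 3 of the 4 groups, though in tamoxifen females it barely differed from that of Egln3 (0.60 and 0.59). In vehicle females it stood at 3.11 ± 0.67 CPM at circadian hour 2 and at 6.45 ± 0.76 CPM at hour 14, and in tamoxifen females at 3.15 ± 0.41 and 7.69 ± 1.45 CPM. Its amplitude was 0.49 ± 0.13 in vehicle females (peak 15.4 h, 1.97-fold from trough to peak, adjusted p = 0.00499) and 0.60 ± 0.13 in tamoxifen females (peak 13.2 h, 2.28-fold, adjusted p = 0.00117). In vehicle males it was 0.67 ± 0.12 (peak 11.9 h, 2.52-fold, adjusted p = 2.58e-05), and 0.65 without the 10 libraries (adjusted p = 0.00915). In tamoxifen males it was 0.10 ± 0.13 (adjusted p = 0.906). All 4 libraries at hour 14 (6.70 to 7.59 CPM) lay above all 4 at hour 10 (3.20 to 3.95 CPM) there, while the 4 at hour 6 spanned 2.26 to 9.88 CPM. These hours were picked after seeing the values, so their separation is no test of a rhythm. The change of its rhythm in males was called with all libraries (0.57 ± 0.18, adjusted p = 0.0383) and not without the 10 (0.56, adjusted p = 0.163).

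**Figure D4:**
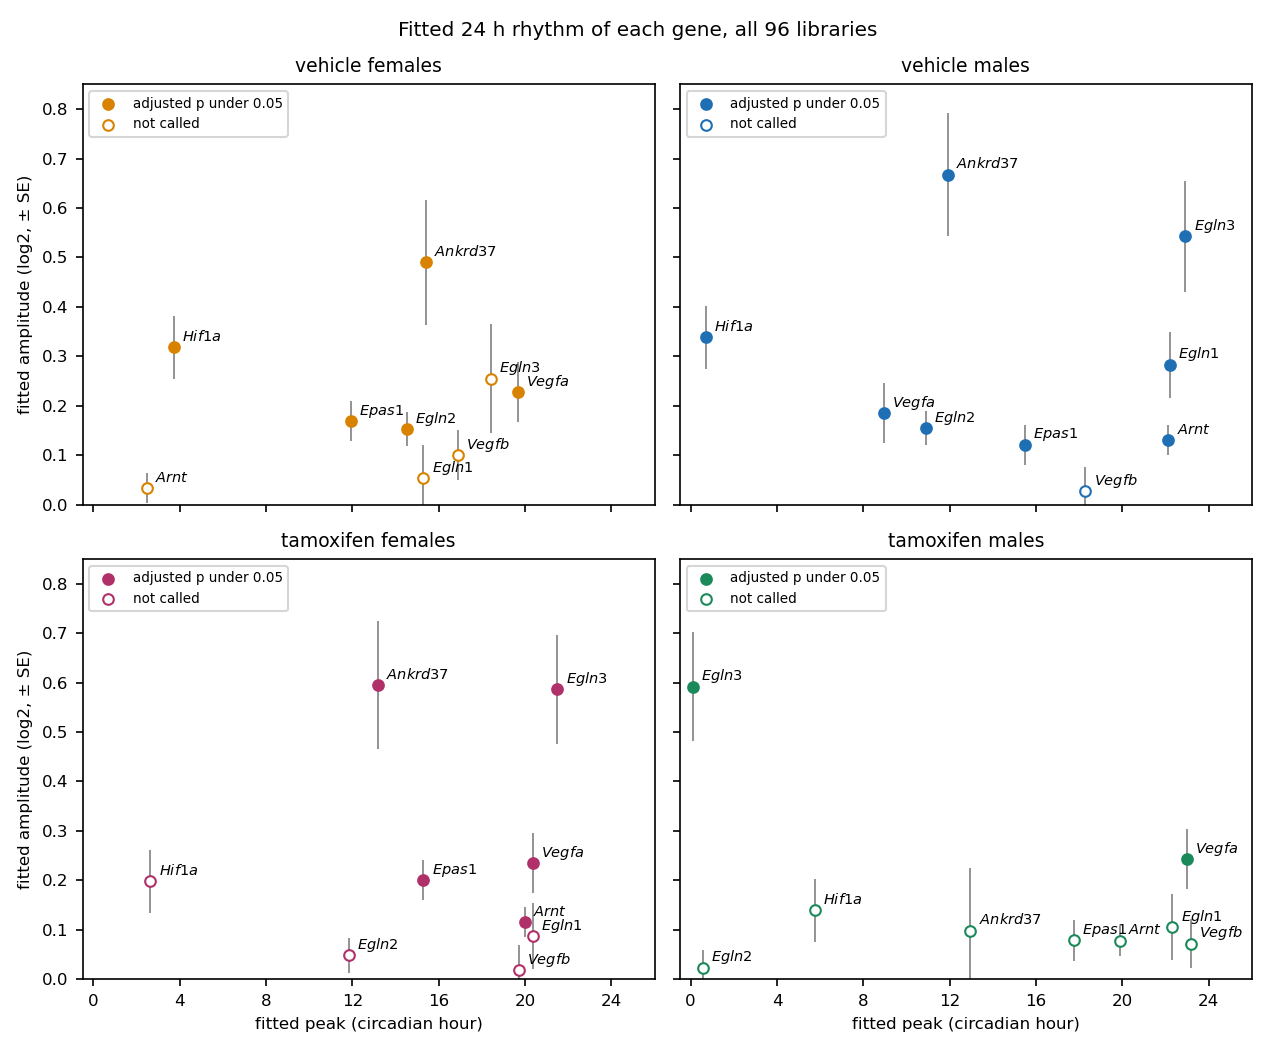
Fitted amplitude on the log2 scale (y axis, ± SE) against the fitted peak in circadian hours (x axis) for each gene in each group, from all 96 libraries; filled points are called at an adjusted p under 0.05. Hif1a lies near the start of the circadian day in the vehicle groups, Ankrd37 between 11.9 and 15.4 h in all 4 (its rhythm was not called in tamoxifen males), and Egln3 at an amplitude of 0.59 in both tamoxifen groups.

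As a set, the rhythm of 0 of 9 genes changed with tamoxifen in females by edgeR's quasi-likelihood test, against 0.237% of all genes, while 3 of 9 had an unadjusted p under 0.05 and DESeq2 called 0. In males 4 of 9 changed, Hif1a, Egln2, Vegfa and Ankrd37, against 20.7%. Leaving out single times ended the call of Hif1a (ct 34 or 46), of Egln2 (ct 26, 58 or 62) and of Ankrd37 (ct 22, 26, 30, 34, 46, 50, 58 or 62). The count was 1 of 9 without the 10 libraries, Vegfa, against 2.55%. Without every library that stands apart it was 0 of 9. Between the sexes the rhythm differed for 4 of 9 genes in vehicle hearts by edgeR (6 by DESeq2), against 37.4%. The 4 were Egln1, Egln3, Vegfa and Ankrd37, and the count was 1 to 7 of 9 when single times were left out. Without the 10 libraries it differed for 3 of 9, Egln3, Vegfa and Vegfb, against 16.8%, and without every library that stands apart for 0 of 9. In tamoxifen hearts the rhythm of 0 of 9 differed between the sexes by edgeR, against 0.0384%, with 3 of 9 at an unadjusted p under 0.05 and 0 by DESeq2. A p that misses the threshold does not show that the rhythms were alike.

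Among further regulators of HIF, 12 were tested. In females 4 of 12 were called with tamoxifen, 2 higher and 2 lower, against the same 27.5% of all genes, with a median log2 change of 0.06 beside 0.01. Vhl, which encodes the ligase subunit that recognises hydroxylated HIF, rose from 15.7 ± 1.29 to 17.6 ± 1.51 CPM (0.16 ± 0.04, adjusted p = 0.000950), and Eloc, its partner, rose by 0.13 ± 0.04 (adjusted p = 0.0157), a call that ended without every library that stands apart (0.08, adjusted p = 0.177). Ep300, which encodes a coactivator of HIF, fell by 0.22 ± 0.06 (adjusted p = 0.00166), and Hif3a, a further alpha subunit of low level, fell from 1.61 ± 0.69 to 0.79 ± 0.53 CPM (-1.074 ± 0.19, adjusted p = 4.01e-06; named for being 1 of the 4 calls). In males 10 of 12 were called with all libraries, 5 in each direction, against 70.0% of all genes, and 9 of 12 without the 10, against 42.5%. Hif1an, which encodes the asparaginyl hydroxylase that blocks coactivator binding, rose in males from 68.9 ± 29.6 to 132 ± 21.04 CPM (1.002 ± 0.096, adjusted p = 2.42e-15) and by 0.74 without the 10 libraries (adjusted p = 3.24e-08). In females Hif1an stood at 113.8 ± 27.8 CPM with vehicle and 125.6 ± 14.6 CPM with tamoxifen and was not called. Vehicle males thus had the lowest mean of the 4 groups. Cul2, a scaffold of the same ligase, rose by 0.50 ± 0.06, or 0.23 without the 10 (adjusted p = 2.29e-06). Elob, which encodes a partner of Vhl in that ligase, fell by 0.47 ± 0.06, and its change was -0.39 without the 10 (adjusted p = 7.71e-06).

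Of 42 tested genes known as HIF targets, females given tamoxifen had 19 called, of which 10 rose and 9 fell, against 27.5% of all genes, where the median change was 0.03 beside 0.01 for all genes. Ddit4, an inhibitor of growth signalling, rose from 67.6 ± 32.9 to 140 ± 36.2 CPM in females (1.17 ± 0.13, adjusted p = 5.49e-12) and from 52.7 ± 20.96 to 116 ± 35.4 CPM in males (1.17 ± 0.13, adjusted p = 2.02e-12). It rose by 1.08 in males without the 10 libraries (adjusted p = 3.99e-07). Pkm, a glycolytic enzyme, rose by 0.26 ± 0.05 in females (adjusted p = 2.70e-06), while the secreted factor Stc2 fell by 0.35 ± 0.06 (adjusted p = 7.91e-07). In males 28 of 42 were called, 18 higher and 10 lower, against 70.0% of all genes, and 17 of 42 without the 10 libraries, 9 higher and 8 lower, against 42.5%. Neither share exceeded that of all genes. Ak4 and Hk1, enzymes of energy metabolism, rose there by 0.79 ± 0.09 and 0.53 ± 0.07, and by 0.43 and 0.29 without the 10. Mif fell by 0.54 ± 0.06, with a log2 change of -0.50 without the 10 (adjusted p = 4.19e-08). Some of these genes also respond to other signals, and the lists were compiled with earlier results known.

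Of the 8 tested further VEGF family ligands and receptors, 1 was called with tamoxifen in females, Pgf, a ligand of low level that fell by 0.26 ± 0.10 (adjusted p = 0.0454; named for being the 1 call). In males 7 of 8 were called, all 7 lower, with a median of -0.31, against 70.0% of all genes called, 37.8% lower and a median of -0.05. Without the 10 libraries 2 of 8 were called, against 42.5%, with a median of -0.10 beside -0.01. Without every library that stands apart 1 of 8 was called, against 48.2%. Pgf fell in males by 0.54 ± 0.09, and its change was -0.29 without the 10 libraries (adjusted p = 0.0196). Vegfc, a ligand of lymphatic vessels, fell by 0.49 ± 0.08, with -0.18 without the 10 (adjusted p = 0.0436). Its call ended without every library that stands apart (-0.17, adjusted p = 0.0760). Nrp1, a coreceptor, had a change of -0.32 ± 0.05 with all libraries and -0.11 without the 10 (adjusted p = 0.0863). Of the 4 angiopoietin genes, 0 were called in females by edgeR, 0 had an unadjusted p under 0.05 and DESeq2 called 0. In males 4 of 4 were called with all libraries, 1 higher and 3 lower, against 70.0% of all genes. Without the 10 it was 0 of 4, against 42.5%, where 0 had an unadjusted p under 0.05 by edgeR. The angiopoietin genes Tek and Tie1 and the VEGF receptor genes Kdr and Flt1 are also among the 13 endothelial markers. These counts and the summed endothelial markers are therefore not separate observations.

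The tested genes most like each member over the day were found among 11055 genes of at least 5 CPM, by Pearson's r over 48 points, each the mean log2 CPM of a group at a time with its group mean removed. The points share libraries and depth, and the 12 of vehicle males include the libraries that stand apart, so r is also given over the other 36 points. For Egln3 the likest were Them4 (r = 0.88, and 0.84 over 36 points), Alas1 (0.88 and 0.82), the first enzyme of heme synthesis, and Stip1 (0.86 and 0.86), a cochaperone. For Ankrd37 they were Hey1 (0.87 and 0.88), a Notch target, Rassf1 (0.85 and 0.84) and Gpihbp1 (0.83 and 0.77), which anchors lipoprotein lipase on capillaries. For Vegfa they were Zbtb46 (0.85 and 0.81), Gm49284 (0.82 and 0.81) and Tmem184b (0.82 and 0.86). For Epas1 they were Phactr4 (0.85 and 0.86), Fzd4 (0.84 and 0.86), a Wnt and norrin receptor, and Klf13 (0.83 and 0.85). For Hif1a they were Trdmt1 (0.85 and 0.81), Tbc1d32 (0.84 and 0.81) and Trim23 (0.84 and 0.76). For Arnt they were Arhgef12 (0.89 and 0.88), Ap1g1 (0.88 and 0.85) and Hivep1 (0.88 and 0.87). For Egln1 they were St3gal3 (0.95 and 0.79), Isca1 (0.95 and 0.82) and Adipor1 (0.95 and 0.84). Egln2 was likest to Abhd11 (0.89 and 0.85), Mrps12 (0.88 and 0.83) and Glrx5 (0.87 and 0.83), and Vegfb to Txn2 (0.92 and 0.86), Slc25a39 (0.91 and 0.83) and Mlf2 (0.91 and 0.84). Among the members themselves, Egln3 and Vegfa had r = 0.32 over 48 points and 0.85 over the 36 without vehicle males. Hif1a ran against Ankrd37 (r = -0.72 and -0.63) and against Egln2 (-0.67 and -0.74).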

How the data were processed

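RNA of heart ventricle was sequenced in 96 libraries, and the values are raw counts per gene, whole numbers deposited by the authors with no normalization. The submitters' processing notes name HISAT2, Picard and HTSeq and the builds GRCm38 and mm10; for versions and the strand setting the entry is: not given in the sources used here. Gene coordinates come from the annotation given for GRCm38. All 96 count columns matched a sample title, and 0 columns were left unmapped.

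Counts were analysed with edgeR 4.0.16 in R 4.3.3. After filterByExpr with a minimum count of 10, 15629 of 55376 genes were scaled by TMM and fitted over all 96 libraries with a mean and a 24 h cosine per group (12 coefficients, 84 residual degrees of freedom). P-values of quasi-likelihood tests were adjusted over all tested genes (Benjamini-Hochberg), and called means an adjusted p under 0.05. A change is the difference of the fitted log2 means over the day, and a rhythm test asks whether both cosine terms are 0. The code was tested on simulated data.

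Library totals of 8944955 to 20596194 counts make 1 count worth at most 0.112 CPM. The 48 pairs of libraries of the same group and time differed by more than sampling noise, with a chi-square per gene of 3.86 to 99.6 over genes with at least 20 counts, so none was counted as a duplicate.

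The 9 genes and all lists were chosen with earlier results of these data known. Of each list, the up to 3 highest and 3 lowest called changes, and the up to 3 largest called amplitudes, are named among genes of at least 5 CPM, and for each of the 9 genes the 3 likest genes, computed on log2 CPM with 0.5 added. Not every gene that this rule names is described, and 1 is not reported here. Alternatives were DESeq2 1.42.0, library size alone, no filter on low counts, a length and GC offset, time as a factor, only the groups compared, each 24 h alone, each time left out, and libraries that stand apart left out. Leaving out all of the latter together was chosen after seeing the data.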

Additional observations from a re-analysis of the deposited data

Results flagged for a closer look

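The effect of tamoxifen differed between females and males, by the interaction term fitted across all genes with edgeR, for 6 of the 9 genes (4 by DESeq2), against 52.3% of all genes. As the change in females minus the change in males on the log2 scale, the difference was -0.21 for Hif1a (adjusted p = 0.0462), -0.14 for Arnt (adjusted p = 0.00443), -0.38 for Egln1 (adjusted p = 0.000544), 0.12 for Egln2 (adjusted p = 0.0397), 0.40 for Vegfa (adjusted p = 8.42e-05) and 0.41 for Ankrd37 (adjusted p = 0.0482). Without the 10 vehicle male libraries of high TEC share, Arnt, Egln2 and Vegfa were called, against 28.1% of all genes, and the values were -0.10 for Hif1a, -0.09 for Egln1 and 0.20 for Ankrd37.

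The rhythm differed between vehicle females and vehicle males for 4 of 9 genes by edgeR (6 by DESeq2), against 37.4% of all genes. The vector length by edgeR was 0.30 for Egln1 (adjusted p = 0.0272), 0.50 for Egln3 (adjusted p = 0.0244), 0.41 for Vegfa (adjusted p = 0.000966) and 0.54 for Ankrd37 (adjusted p = 0.0408). Without the 10 libraries the values were 0.13 for Egln1, 0.45 for Egln3, 0.36 for Vegfa and 0.49 for Ankrd37, and those of Egln3 (adjusted p = 0.0335) and Vegfa (adjusted p = 0.00768) were called. Vegfb was then called as well, and without all libraries that stand apart 0 of 9 were called.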

How the results depend on the processing

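Over the 9 genes, 13 comparisons and all settings, 2916 single values were recomputed: 2633 kept their side of the threshold, 222 lost the call, 53 gained it and 8 reversed. A value called in neither setting could change sign and still count as kept. This was so for Epas1 with tamoxifen in females (-0.0047 with all libraries and 0.0026 without the 10 vehicle male libraries). Without the 10 vehicle male libraries of high TEC share, the male tamoxifen change was -0.12 for Egln1 and -0.14 for Vegfb, and the female minus male difference in vehicle was -0.07 for Egln3 and -0.15 for Vegfb; without all libraries that stand apart these 4 values were -0.14, -0.18, -0.06 and -0.13. Counts of called genes also moved. For tamoxifen in females (2 of 9), 4 were called with a length and GC offset, with the 12 times as a factor and without all libraries that stand apart, and 0 in the second 24 h alone. For sex in vehicle (8), it was 3 without the 10 libraries or without all that stand apart and 5 in the second 24 h. For sex in tamoxifen (1), it was 0 with no filter, library size alone, all apart left out or the first 24 h. For the interaction (6), it was 3 with the offset or without the 10, and 2 without all apart or in the second 24 h. Rhythmic genes in vehicle females (5) became 0 in the first 24 h. In vehicle males (8) they became 4 without the 10 or without all apart, 5 with only the groups compared and 3 in the second 24 h. In tamoxifen females (5) they became 1 and 3 in the first and second 24 h. In tamoxifen males (2) they became 1 with library size alone, without libraries over 20 CPM of Myl7 or in the first 24 h, and 0 in the second. The rhythm change in females (0) became 2 without all apart and 1 with only the groups compared. In males (4) it became 2 with no filter or the offset, 1 without the 10 or without libraries high in Myl7, and 0 without all apart, with only the groups compared or in the second 24 h. The rhythm difference in vehicle (4) became 2 without libraries high in Myl7, with only the groups compared or in the first 24 h, 1 in the second and 0 without all apart. The cause was not tested, except that single cycles and settings with fewer libraries hold fewer samples.

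With each time left out in turn, the counts ranged from 2 to 3 for tamoxifen in females, 5 to 6 in males, 6 to 8 for sex in vehicle, 0 to 1 for sex in tamoxifen and 3 to 5 for the interaction. Rhythmic genes ranged from 5 to 5 in vehicle females, 6 to 8 in vehicle males, 4 to 6 in tamoxifen females and 1 to 2 in tamoxifen males. The rhythm change ranged from 0 to 0 in females and 2 to 4 in males, and the rhythm difference between sexes from 1 to 7 in vehicle (7 without ct 26, 1 without ct 34) and 0 to 0 in tamoxifen. No paired analysis was possible because the numbers in the titles are unique to each library. Ankrd37, at 30 to 215 counts, has the lowest depth behind its values.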

Other observations

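Further genes of the pathway were rhythmic in vehicle females. In vehicle females 4 of 8 further VEGF ligands and receptors were called, against 34.5% of all genes. The receptor genes Kdr and Flt1 peaked at different hours: Kdr had an amplitude of 0.35 ± 0.07 with a peak at 1.06 h (adjusted p = 0.000183), and Flt1, a decoy for VEGFA, one of 0.32 ± 0.06 with a peak at 15.4 h (adjusted p = 8.81e-05). In tamoxifen females Kdr peaked at 0.0177 h (0.29 ± 0.07, adjusted p = 0.00434) and Flt1 at 16.3 h (0.34 ± 0.06, adjusted p = 8.16e-05). Of the 42 HIF target genes, 19 were rhythmic in vehicle females, against 34.5% of all genes, and 16 in tamoxifen females, against 17.1%. In vehicle males 26 of 42 were rhythmic with all libraries, against 55.2%, and 6 of 42 without the 10 libraries of high TEC share, against 18.2%. The largest amplitudes in vehicle females were those of Angptl4, an inhibitor of lipoprotein lipase (1.51 ± 0.34, peak 1.22 h, adjusted p = 0.000498), Ddit4 (0.92 ± 0.13, peak 17.98 h, adjusted p = 7.98e-07) and Bhlhe40, itself a clock-linked repressor (0.60 ± 0.09, peak 9.58 h, adjusted p = 7.77e-07).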
